A study of Mus musculus with 15 samples.

Results

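The expression of 8 genes that encode positional factors was measured in sorted stromal cells of white adipose tissue (WAT) and lung. They are the homeobox genes Hoxc6, Hoxc8, Hoxa5 and Hoxb5, the transcriptional co-activator gene Eya2, the T-box genes Tbx4 and Tbx5, and the forkhead gene Foxf1. They were picked by symbol out of the 10222 gene symbols of the deposited expression table, and all 8 are listed there. Their levels in WAT and lung stroma had been seen when the 8 were picked, so the values of that contrast are given as a description, with no test.

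RNA came from 5 cell populations sorted ex vivo, each with 3 libraries (n = 15). All were taken from C57BL/6 mice that carry an IL33-citrine reporter, an allele described as heterozygous in the series, in which citrine fluorescence stands for Il33 transcription. No group was treated, and the age and sex of the mice are not given in the sources used here. The stromal cells (multipotent stromal cells, MSC) lacked lineage markers, CD45, Epcam, CD31 and CD24, and carried PDGFRα, CD34, Sca1 and Podoplanin. They were taken from WAT, named as mesenteric in the labels, with the citrine signal (Il33+ WAT-MSC) or without it (Il33- WAT-MSC), and from lung with the signal (lung Il33+ MSC). The other 2 populations were CD31+ WAT endothelial cells and Epcam+ lung epithelial cells. The lung therefore has no Il33- stroma and no endothelium here, and WAT has no epithelium, so tissue and cell type cannot be told apart when WAT endothelial cells are set against lung epithelial cells.

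Hox genes lie in clusters and encode transcription factors that are active along the body axis in an order that follows their place in the cluster. Fibroblasts keep much of this Hox pattern into adult life, so the Hox genes of a stromal cell reflect where in the body it was formed. Tbx4 and Tbx5 encode T-box factors of the early lung mesenchyme and of limb and heart, and FOXF1 is a forkhead factor of the mesenchyme around lung and gut that responds to hedgehog signals. EYA2 is a phosphatase and co-activator that works with homeodomain proteins of the sine oculis family.

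The unit throughout is RPKM, reads per kilobase of transcript scaled to the mapped reads of a library, summed over the listed transcripts of a symbol. Each library had between 42711843 and 60773158 alignments, in 2 sequencing lanes that each held libraries of all 5 populations. The 10 stromal markers summed to between 4628.5 and 9746.0 RPKM in the MSC libraries, to between 2067.9 and 4374.8 in WAT endothelial cells and to between 156.4 and 258.7 in lung epithelial cells. The 8 endothelial markers summed to between 482.6 and 547.8 in the endothelial libraries and to at most 68.1 elsewhere, and the 8 epithelial markers to between 162042.8 and 209513.5 in the epithelial libraries and to at most 543.0 elsewhere. The WAT endothelial libraries also had adipocyte markers (2 of 6 in the table, 188.7 to 399.9, at most 20.1 elsewhere), smooth muscle and pericyte markers (6 of 6, 187.7 to 273.3, at most 21.1 elsewhere) and leukocyte markers (5 of 6, 203.1 to 311.2, against 200.2 to 422.3 in lung epithelial cells and at most 90.9 in MSC). In the endothelial libraries Fabp4 alone had 187.02, 216.78 and 397.29 RPKM of the adipocyte sum. Pparg, the other adipocyte marker listed, had a mean of 2.27 there, against 2.37 in Il33- WAT-MSC and 2.98 in lung epithelial cells. Its mean was 0.307 in Il33+ WAT-MSC and 0.28 in lung Il33+ MSC. The adipocyte sum thus rests on Fabp4. Cd74 alone had 271.95, 263.5 and 185.6 RPKM of the leukocyte sum. The 8 mesothelial markers summed to between 56.7 and 220.3 in these libraries. They summed to between 82.4 and 155.9 in lung epithelial cells, mostly Krt19 (75.54, 134.07 and 152.76), and to at most 129.4 in MSC. Alveolar macrophage markers summed to between 194.8 and 244.2 in lung Il33+ MSC and to at most 37.5 in WAT-MSC. Their sums were 722.6 to 1394.7 in lung epithelial cells and 10.7 to 134.5 in WAT endothelial cells. Of these sums, Lyz2 alone had 144.87, 129.26 and 105.4 RPKM in lung Il33+ MSC and 658.02, 1059.35 and 1301.32 in lung epithelial cells. Replicate 1 of the endothelial cells stood apart, with 10.94% of the transcripts listed at 0 against 1.87 to 7.41% elsewhere. In such bulk libraries fewer cells of a type and less RNA per cell cannot be told apart.

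The 4 Hox members lie in 3 clusters, Hoxc6 and Hoxc8 side by side in HoxC on chromosome 15. Their homeobox, the stretch of 180 bases that encodes the DNA-binding homeodomain, lies in exon 2 of 2 in each of them. It is shown for 3 of them, so that the pair higher in WAT, Hoxc6 and Hoxc8, can be compared with Hoxa5, which was higher in lung stroma. The runs below are the coding strand of GRCm38, 5′ to 3′, and the capitals mark bases that differ from Hoxa5 at the same place, which are 44 in Hoxc6 and 62 in Hoxc8. They lie at chr6:52202632-52202811 (minus strand) for Hoxa5, chr15:103010754-103010933 (plus) for Hoxc6 and chr15:102992571-102992750 (plus) for Hoxc8.
Hoxa5: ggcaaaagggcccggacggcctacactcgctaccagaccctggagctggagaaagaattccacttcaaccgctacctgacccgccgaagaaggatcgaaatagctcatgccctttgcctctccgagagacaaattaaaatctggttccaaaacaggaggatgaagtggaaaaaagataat
Hoxc6: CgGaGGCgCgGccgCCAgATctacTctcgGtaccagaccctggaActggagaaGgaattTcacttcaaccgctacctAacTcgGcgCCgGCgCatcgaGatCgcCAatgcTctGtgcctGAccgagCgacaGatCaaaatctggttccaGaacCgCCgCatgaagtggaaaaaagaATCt
Hoxc8: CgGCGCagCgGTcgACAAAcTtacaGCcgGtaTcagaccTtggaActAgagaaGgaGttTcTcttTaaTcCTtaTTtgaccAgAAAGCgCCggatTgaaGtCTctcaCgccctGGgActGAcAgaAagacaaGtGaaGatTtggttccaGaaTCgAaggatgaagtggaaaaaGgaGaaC
Hoxc6 and Hoxc8 of the same cluster shared 67.8% of these bases, and Hoxa5 shared 75.6% with Hoxc6 and 65.6% with Hoxc8. The longest exact run that any of the 8 members shared with a transcript of another Hox, Tbx, Fox or Eya gene was 28 to 52 bases. The read length is not given in the sources used here, so reads that fall whole into such runs could have been placed on either gene.

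Hoxc6 and Hoxc8 were expressed in all 3 WAT populations and were close to 0 in both lung populations. Hoxc8 (chr15:102990539-102994275, plus strand) encodes a central HoxC factor. It stood at 12.08, 15.25 and 19.63 RPKM in Il33+ WAT-MSC (replicates 1, 2 and 3, mean 15.7 ± 3.79 SD, n = 3) and at 11.37, 12.15 and 8.93 in Il33- WAT-MSC (10.8 ± 1.68). Lung Il33+ MSC had 0.15, 0.08 and 0.12 RPKM (0.117 ± 0.0351). Every WAT stromal library was thus far above every lung stromal library. WAT endothelial cells had 8.66, 11.42 and 13.66 RPKM (11.2 ± 2.5) and lung epithelial cells 0.25, 0.09 and 0.11 (0.15 ± 0.0872). In order of level, Il33+ WAT-MSC, WAT endothelial cells and Il33- WAT-MSC overlapped with their neighbours, a gap followed, and the lung populations overlapped with each other at the low end.

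Hoxc6 (chr15:102998226-103011882, plus strand), a neighbour of Hoxc8 in the cluster, followed the same pattern with a wider spread. It reached 15.4, 9.36 and 7.21 RPKM in Il33+ WAT-MSC (10.7 ± 4.25) and 6.27, 14.64 and 9.28 in Il33- WAT-MSC (10.1 ± 4.24). In lung Il33+ MSC it was listed at 0.06, 0.02 and 0 RPKM. No WAT stromal library came near the lung values. WAT endothelial cells held 1.57, 4.99 and 7.34 RPKM (4.63 ± 2.9), of which the highest overlapped with the stromal range, and lung epithelial cells 0, 0.02 and 0.02. In the order Il33+ WAT-MSC, Il33- WAT-MSC and WAT endothelial cells neighbours overlapped, and both lung populations lay apart below them. Across the 15 libraries, log2(RPKM + 1) of Hoxc6 and Hoxc8 had a Pearson r of 0.94, a description over libraries that share their populations.

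Hoxa5 and Hoxb5, group 5 paralogues of the HoxA and HoxB clusters, were highest in lung stroma but were present in WAT as well. Hoxa5 (chr6:52201754-52204587, minus strand), which is known for its part in lung morphogenesis, had 11.68, 11.22 and 9.54 RPKM in lung Il33+ MSC (10.8 ± 1.13). Il33+ WAT-MSC had 3.08, 1.47 and 4.51 (3.02 ± 1.52) and Il33- WAT-MSC 4.59, 4.17 and 5.58 (4.78 ± 0.724). All lung stromal libraries thus lay above all WAT stromal libraries, by a smaller margin than for the HoxC genes. WAT endothelial cells spread from 3.61 to 20.05, with the 20.05 in replicate 1 and 5.89 in replicate 2 (9.85 ± 8.91), and lung epithelial cells had 0.48, 2.5 and 4.26 (2.41 ± 1.89). In the order lung Il33+ MSC, WAT endothelial cells, Il33- WAT-MSC, Il33+ WAT-MSC and lung epithelial cells, each population overlapped with the next.

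Hoxb5 (chr11:96303512-96306121, plus strand) was uneven between the replicates in WAT. It had 6.55, 10.55 and 7.16 RPKM in lung Il33+ MSC (8.09 ± 2.16). Il33+ WAT-MSC had 2.98, 0.08 and 2.82 (1.96 ± 1.63) and Il33- WAT-MSC 6.15, 9.12 and 3.04 (6.1 ± 3.04). The Il33+ WAT-MSC libraries were all lower than the lung stromal ones, whereas the Il33- WAT-MSC libraries overlapped with them. WAT endothelial cells had 0.33, 7.82 and 4.64 (4.26 ± 3.76) and lung epithelial cells 0.84, 0.2 and 0.04 (0.36 ± 0.423). From lung Il33+ MSC through Il33- WAT-MSC, WAT endothelial cells and Il33+ WAT-MSC to lung epithelial cells, no neighbours were apart. Of the 1895 exonic bases of the Hoxb5 transcript, 100 overlap the antisense gene Hoxb5os, and the library kit is not stated to keep the strand, so reads there cannot be told apart.

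Eya2 (chr2:165595028-165771727, plus strand) was high in WAT stroma and in lung epithelium, and low in lung stroma. It had 18.51, 10.41 and 19.29 RPKM in Il33+ WAT-MSC (16.1 ± 4.92) and 24.16, 27.47 and 21.5 in Il33- WAT-MSC (24.4 ± 2.99). Lung Il33+ MSC had 0.1, 0.62 and 0.62 (0.447 ± 0.3), while lung epithelial cells of the same organ had 12.72, 13.9 and 16.81 (14.5 ± 2.11). Within the lung, the stromal and the epithelial libraries were thus far apart. WAT endothelial cells spread from 1.55 in replicate 1 through 5.95 in replicate 2 to 15.21 in replicate 3 (7.57 ± 6.97). Il33- WAT-MSC stood apart from Il33+ WAT-MSC in the order of levels, Il33+ WAT-MSC overlapped with lung epithelial cells, these overlapped with WAT endothelial cells, and lung stroma was apart at the low end.

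Eya2 has 2 listed transcripts. NM_001271962 made up 58.3, 89.0 and 92.7% of the Eya2 sum in Il33+ WAT-MSC, 50.8, 72.0 and 50.8% in Il33- WAT-MSC and 96.0, 67.5 and 54.5% in lung epithelial cells. The shares overlapped between these populations. With the most abundant transcript alone, the log2 fold change of Eya2 in Il33- WAT-MSC against lung stroma was 3.39, against 4.15 for the sum.

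Tbx5 and Tbx4 were expressed in lung stroma, at low level in lung epithelium, and near 0 in all 9 WAT libraries. Tbx5 (chr5:119796514-119885220, plus strand) had 11.83, 13.75 and 9.46 RPKM in lung Il33+ MSC (11.7 ± 2.15). It was at most 0.05 in the WAT libraries, and lung epithelial cells had 1.09, 0.68 and 1.26 (1.01 ± 0.298). The 3 levels, lung stroma, lung epithelium and WAT, did not overlap.

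Tbx4 (chr11:85886367-85916097, plus strand), which lies beside its relative Tbx2 on chromosome 11, had 3.94, 5.55 and 4.3 RPKM in lung Il33+ MSC (4.6 ± 0.845). It was listed at 0 in all 3 Il33- WAT-MSC libraries and was at most 0.04 in the other WAT libraries. Lung epithelial cells had 0.28, 0.88 and 1.49 (0.883 ± 0.605), again apart from lung stroma and from WAT. Both listed transcripts contributed in lung stroma, with 1.19, 3.76 and 2.38 RPKM for NM_011536 and 2.75, 1.79 and 1.92 for NM_172798. Which of them was higher changed between the replicates. Log2 values of Tbx4 and Tbx5 had a Pearson r of 0.98 across the 15 libraries, the highest among the pairs of members.

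Foxf1 (chr8:121084386-121088154, plus strand) was found in every population, with the highest mean in lung stroma. It had 8.29, 13.6 and 9.27 RPKM in lung Il33+ MSC (10.4 ± 2.83). Il33+ WAT-MSC had 3.92, 2.96 and 6.92 (4.6 ± 2.07) and Il33- WAT-MSC 11.68, 5.22 and 5.38 (7.43 ± 3.68). Lung stroma was above Il33+ WAT-MSC in every library and overlapped with Il33- WAT-MSC through replicate 1 of the latter. WAT endothelial cells had 13.02, 4.64 and 7.54 (8.4 ± 4.26) and lung epithelial cells 4.39, 1.67 and 0.97 (2.34 ± 1.81). Each population overlapped with the next in the order lung Il33+ MSC, WAT endothelial cells, Il33- WAT-MSC, Il33+ WAT-MSC and lung epithelial cells.

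**Figure D1:**
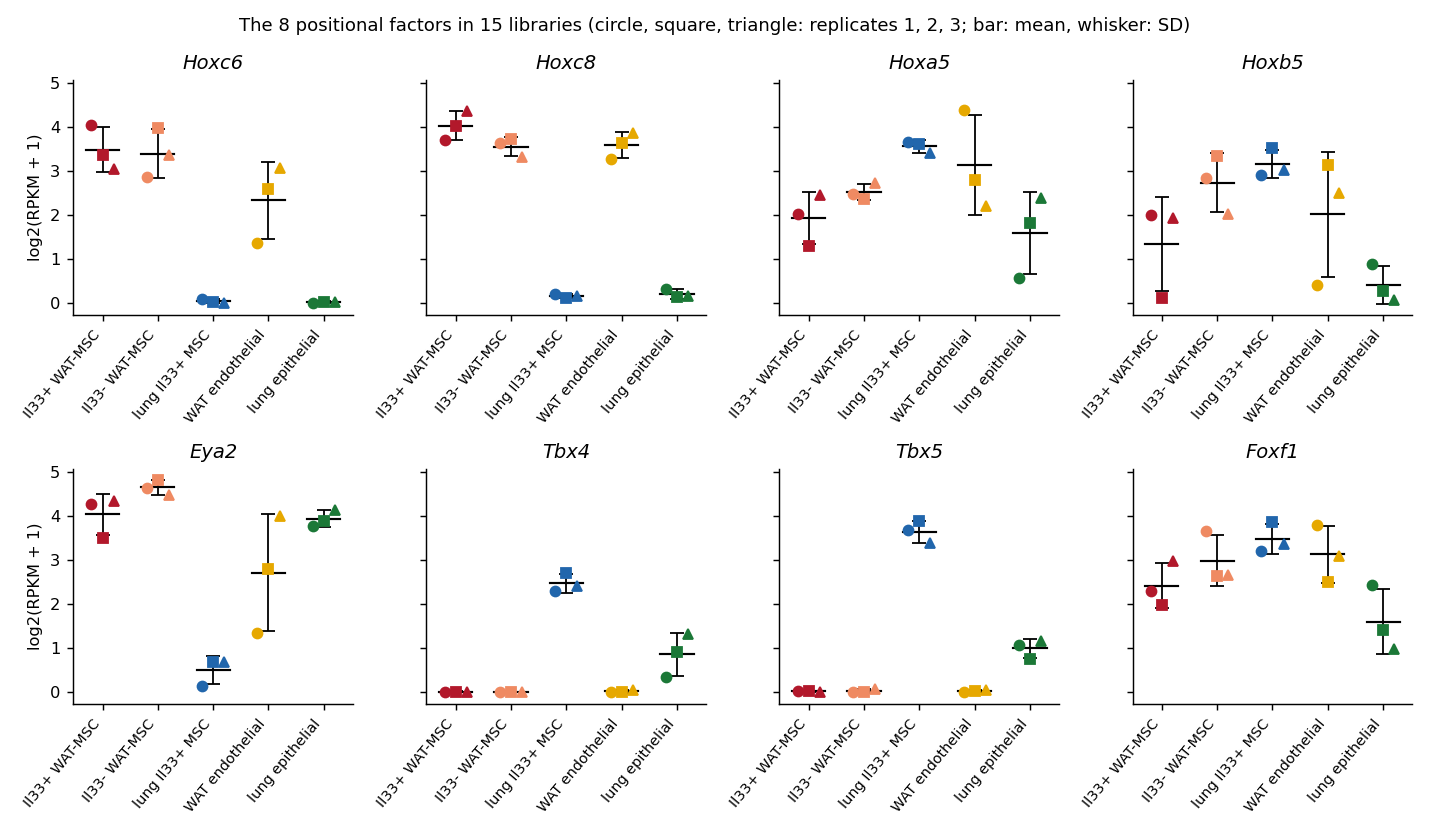
Each panel plots log2(RPKM + 1) of 1 member in the 15 libraries, by population. Points are libraries, the horizontal line is the mean and the whisker the SD of 3 libraries. Hoxc6 and Hoxc8 sit near 0 in both lung populations and Tbx4 and Tbx5 near 0 in all WAT libraries, whereas Hoxa5 and Foxf1 are spread over all populations and Hoxb5 over all but lung epithelial cells, where it is at most 0.84 RPKM.

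Of the 8 members, 2 have a promoter in the RefSeq table for this build (GRCm38.p6), Hoxa5 and Tbx4, both on the lung side. They are shown from 250 bases before to 50 after the annotated start, 5′ to 3′ on the strand of the gene, because these members were high together in lung stroma. Both strands were searched for the Hox core TAAT, the T-box half-site GGTGTGA and the forkhead core TGTTTAC, which do not overlap each other in letters, and capitals mark matches. The Hoxa5 promoter lies at chr6:52204538-52204837 (minus strand) and the Tbx4 promoter, the start of transcript NM_172798, at chr11:85896515-85896814 (plus).
Hoxa5: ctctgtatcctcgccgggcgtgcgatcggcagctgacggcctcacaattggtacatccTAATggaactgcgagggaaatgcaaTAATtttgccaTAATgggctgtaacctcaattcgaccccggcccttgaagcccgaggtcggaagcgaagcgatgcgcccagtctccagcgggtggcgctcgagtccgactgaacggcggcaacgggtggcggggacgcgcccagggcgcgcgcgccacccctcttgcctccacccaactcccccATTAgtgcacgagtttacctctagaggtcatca
Tbx4: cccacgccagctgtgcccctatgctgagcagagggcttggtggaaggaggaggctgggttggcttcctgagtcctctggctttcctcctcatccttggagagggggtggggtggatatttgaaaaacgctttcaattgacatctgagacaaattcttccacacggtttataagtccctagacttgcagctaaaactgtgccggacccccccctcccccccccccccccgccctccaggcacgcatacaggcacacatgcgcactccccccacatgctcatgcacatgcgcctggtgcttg
Hoxa5 had 4 matches to the Hox core and Tbx4 had 0, and neither matched the other motifs. The Hox core is found in 58.0% of the 32817 promoters of the table, the T-box half-site in 4.0% and the forkhead core in 3.6%. The Hoxa5 window held 29 CpG dinucleotides, as many or more than which are found in 12.9% of the promoters, and the Tbx4 window held 8, against a median of 7.

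Differences were taken on the scale of log2(RPKM + 1), which understates the change of genes with low values, and a positive difference is higher in the population named first. For Il33+ WAT-MSC against lung Il33+ MSC, the contrast that chose the members, the log2 fold changes were 3.87 (SE 0.28) for Hoxc8, 3.54 (0.32) for Eya2 and 3.44 (0.32) for Hoxc6. They were -3.63 (0.28) for Tbx5, -2.46 (0.28) for Tbx4, -1.81 (0.47) for Hoxb5, -1.63 (0.32) for Hoxa5 and -1.06 (0.31) for Foxf1. For none of the 8 was there any overlap between WAT and lung libraries, which is so for 23.1% of the 8554 genes compared, and 6.00% of these genes passed the test (2.50% higher and 3.50% lower in WAT). Within lane 1 (2 WAT libraries and 1 lung library) and within lane 2 (1 and 2) each member kept its direction, and the smallest differences were those of Foxf1, -1.07 in lane 1 and -0.63 in lane 2.

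For Il33- WAT-MSC against the same lung libraries, the log2 fold changes were 4.15 for Eya2, 3.39 for Hoxc8, 3.36 for Hoxc6, -3.62 for Tbx5, -2.47 for Tbx4 and -1.03 for Hoxa5, with no overlap of libraries. Hoxb5 and Foxf1 stood at -0.43 (SE 0.35) and -0.49 (SE 0.33), and their libraries overlapped. For Hoxb5 the lanes differed in direction, with 0.17 in lane 1 and -1.26 in lane 2, and for Foxf1 they stood at -0.06 and -0.94. Without Il33- WAT-MSC replicate 3 Hoxb5 stood at -0.07. Of the 8595 genes compared here, 27.4% had libraries that did not overlap and 9.69% passed the test (4.17% higher and 5.53% lower in WAT). Both contrasts use the same 3 lung libraries and were used to choose the members.

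A pseudocount of 0.1 in place of 1 widened the differences of members near 0 in 1 tissue, to 6.36 for Hoxc6, 6.17 for Hoxc8, 5.05 for Eya2, -5.45 for Tbx4 and -6.64 for Tbx5 in Il33+ WAT-MSC against lung Il33+ MSC. The sizes for these 5 genes therefore depend on the added constant, and their directions were the same under both. Hoxb5 moved from -1.81 to -2.77 with that pseudocount and to -1.2 without Il33+ WAT-MSC replicate 2.

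The remaining comparisons were tested with limma, with p adjusted by the Benjamini-Hochberg method over all genes that reached 1 RPKM in 3 or more of the 6 libraries. Which animals the libraries came from is not given, so these p-values measure only the spread between these libraries, which may in part be technical, and an exact permutation test of 3 libraries against 3 could not go below 0.1. The WAT-MSC and lung MSC libraries are those whose values chose the members. Both populations of Il33+ against Il33- WAT-MSC are thus among them, as is the first population of the comparisons with WAT endothelial cells and with lung epithelial cells, and these tests are not independent of the choice.

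Between Il33+ and Il33- WAT-MSC, none of the 6 members that passed the filter differed (limma, 0 of 6, where 1.57% of 8448 genes were called, 0.923% higher and 0.651% lower), and Tbx4 and Tbx5 were below the filter. At an unadjusted p under 0.05 there were 2, Hoxb5 and Eya2, which are also those whose libraries did not overlap (17.5% of all genes). Both were lower in the Il33+ cells, with log2 fold changes of -1.38 (95% interval -2.55 to -0.22, adjusted p = 0.334) for Hoxb5 and -0.61 (SE 0.28, adjusted p = 0.428) for Eya2. Without Il33+ WAT-MSC replicate 2 they stood at -0.77 and -0.34, a pseudocount of 0.1 gave -2.27 for Hoxb5, and the most abundant transcript alone gave -0.18 for Eya2. Hoxc8 stood at 0.48 (-0.11 to 1.07, adjusted p = 0.547), Hoxc6 at 0.09 (-0.7 to 0.87, adjusted p = 0.961), Hoxa5 at -0.59 (adjusted p = 0.6) and Foxf1 at -0.57 (adjusted p = 0.641). The intervals leave room for differences of about 1 log2 unit in several members, so equal levels are not shown.

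Between Il33- WAT-MSC and WAT endothelial cells, whose fat depot the labels do not name, none of 6 members passed (limma, 0 of 6, where 5.69% of 8713 genes were called, 1.60% higher and 4.10% lower), and 1, Eya2, had an unadjusted p under 0.05. Eya2 was higher in the stroma by 1.94 (95% interval 0.61 to 3.27, adjusted p = 0.108), with no overlap of libraries, a state shared by 23.8% of genes. Without endothelial replicate 3 its difference was 2.59 (adjusted p = 0.0188), and over the alternatives its adjusted p ran from 0.0122 to 0.318. Hoxc8 differed by -0.04, with an interval from -0.78 to 0.7 (adjusted p = 0.968), which leaves out a difference of 1 log2 unit either way. Hoxc6 stood at 1.06 (adjusted p = 0.351), Hoxb5 at 0.71 (adjusted p = 0.654), Hoxa5 at -0.6 (adjusted p = 0.628) and Foxf1 at -0.14 (adjusted p = 0.91).

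The endothelial libraries held stromal marker RNA to differing extents, and some members ran in the same order as the marker median. Set against the mean of the Il33- WAT-MSC, the 10 stromal markers had a median level of 38.9, 48.2 and 91.0% in endothelial replicates 1, 2 and 3. Eya2 had 6.36, 24.4 and 62.4% and Hoxc6 15.6, 49.6 and 72.9%. Hoxc8 had 80.1, 105.6 and 126.3%. These 3 members and the median of the stromal markers were lowest in replicate 1 and highest in replicate 3. Not every marker had this order, and Cd34, Dcn, Lum and Pdpn were lowest in replicate 2. Hoxc8 was above the stromal median in each library but within the range of single markers (23.4 to 100.2, 26.9 to 110.2 and 34.2 to 181.4%) in all 3. The top of this range was Cd34 in replicate 1 and Ly6a in replicates 2 and 3. Ly6a had 289.29 and 476.21 RPKM there, against a mean of 262.5 in Il33- WAT-MSC. In replicate 2 no other marker reached its mean in Il33- WAT-MSC. Hoxa5 was highest in replicate 1, at 419.5%, and had 123.2 and 75.5% in the others, while Foxf1 had 175.3, 62.5 and 101.5% and Hoxb5 5.41, 128.1 and 76.0%. The part of stromal RNA in these levels was not tested.

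**Figure D2:**
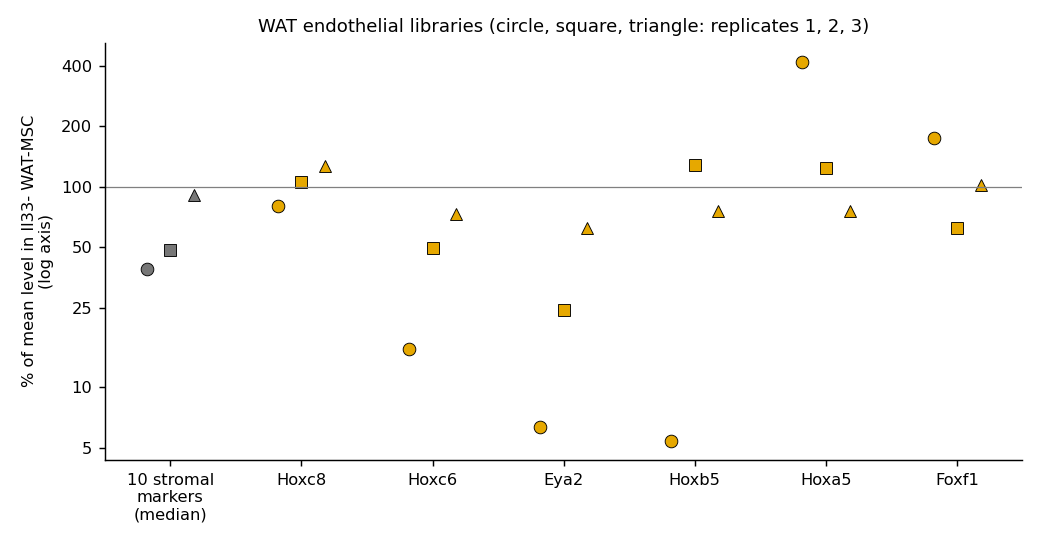
The level of the stromal markers (grey, median of 10 genes) and of 6 members (yellow) in the 3 WAT endothelial libraries is plotted as a percentage of the mean level in Il33- WAT-MSC, on a log axis. Hoxc8 lies between 80.1 and 126.3% and above the median of the markers in each library, while Eya2 lies at or below 62.4%.

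Between lung Il33+ MSC and lung epithelial cells, all 6 members that passed the filter differed, in a comparison where 43.0% of 9352 genes were called (24.4% higher in the stroma and 18.5% lower). Each of the 6 passed the filter through the population in which it was high, since none had all 3 libraries of the other population at 1 RPKM, so the count is no support for a direction. Hoxb5 was higher in lung stroma by 2.76 (SE 0.32, adjusted p = 0.000102), Tbx5 by 2.65 (SE 0.27, adjusted p = 4.16e-05) and Hoxa5 by 1.97 (SE 0.43, adjusted p = 0.00456). Foxf1 followed with 1.87 (SE 0.39, adjusted p = 0.00355) and Tbx4 with 1.61 (SE 0.32, adjusted p = 0.00262). Eya2 was the exception, lower in lung stroma by a log2 fold change of -3.43 (SE 0.28, adjusted p = 1.06e-05). The libraries of these 6 did not overlap, a state shared by 53.4% of genes. Hoxc6 and Hoxc8 were at most 0.25 RPKM in all 6 libraries and were not tested.

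Stromal marker levels were low in the epithelial libraries. The 10 stromal markers had a median of 2.03, 2.34 and 3.21% of their mean in lung Il33+ MSC, with single markers from 0.969 to 15.1, 0.894 to 11.8 and 0.964 to 17.6%. Tbx5 had 9.33, 5.82 and 10.8% and Tbx4 6.09, 19.1 and 32.4%, above the marker median in each library. Hoxb5 had 10.4, 2.47 and 0.495%, below it in replicate 3. Foxf1 had 42.3, 16.1 and 9.34%, and Hoxa5 4.44, 23.1 and 39.4%, so these 2 genes ran in opposite order over the same 3 libraries. The part of stromal RNA in these levels was not tested either.

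WAT endothelial cells against lung epithelial cells is the pair that shares no library with the contrast behind the choice of members. Of 5 members that passed the filter, 2 were higher in WAT endothelial cells, where 27.6% of 9261 genes were called, 14.9% higher and 12.8% lower (1377 higher and 1183 lower, or 1190 and 1567 after median-ratio scaling). Hoxc8 was higher by 3.39 (SE 0.35, adjusted p = 0.000284) and Hoxc6 by 2.32 (SE 0.47, adjusted p = 0.00716). Both passed the filter through the endothelial libraries alone, so the count is no support for a direction. Neither overlapped between the populations, as was so for 41.9% of genes. The endothelial libraries also held stromal marker RNA, as given above, and its part in these differences was not tested. Hoxa5 (1.54, adjusted p = 0.137), Foxf1 (1.52, adjusted p = 0.0596) and Eya2 (-1.22, adjusted p = 0.19) did not pass. Leaving out 1 library changed this for 2 of them, with -1.87 for Eya2 without endothelial replicate 3 (adjusted p = 0.0269) and 1.94 for Foxf1 without epithelial replicate 1 (adjusted p = 0.0491). With all 15 libraries in one fit Hoxa5 and Foxf1 passed (adjusted p = 0.0318 and 0.0134), and Eya2 passed after median-ratio scaling (-1.49, adjusted p = 0.0468). Tbx4, Tbx5 and Hoxb5 were below the filter. Tbx4 and Tbx5 were at most 0.04 RPKM in the endothelial libraries against 0.28 to 1.49 in the epithelial ones.

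**Figure D3:**
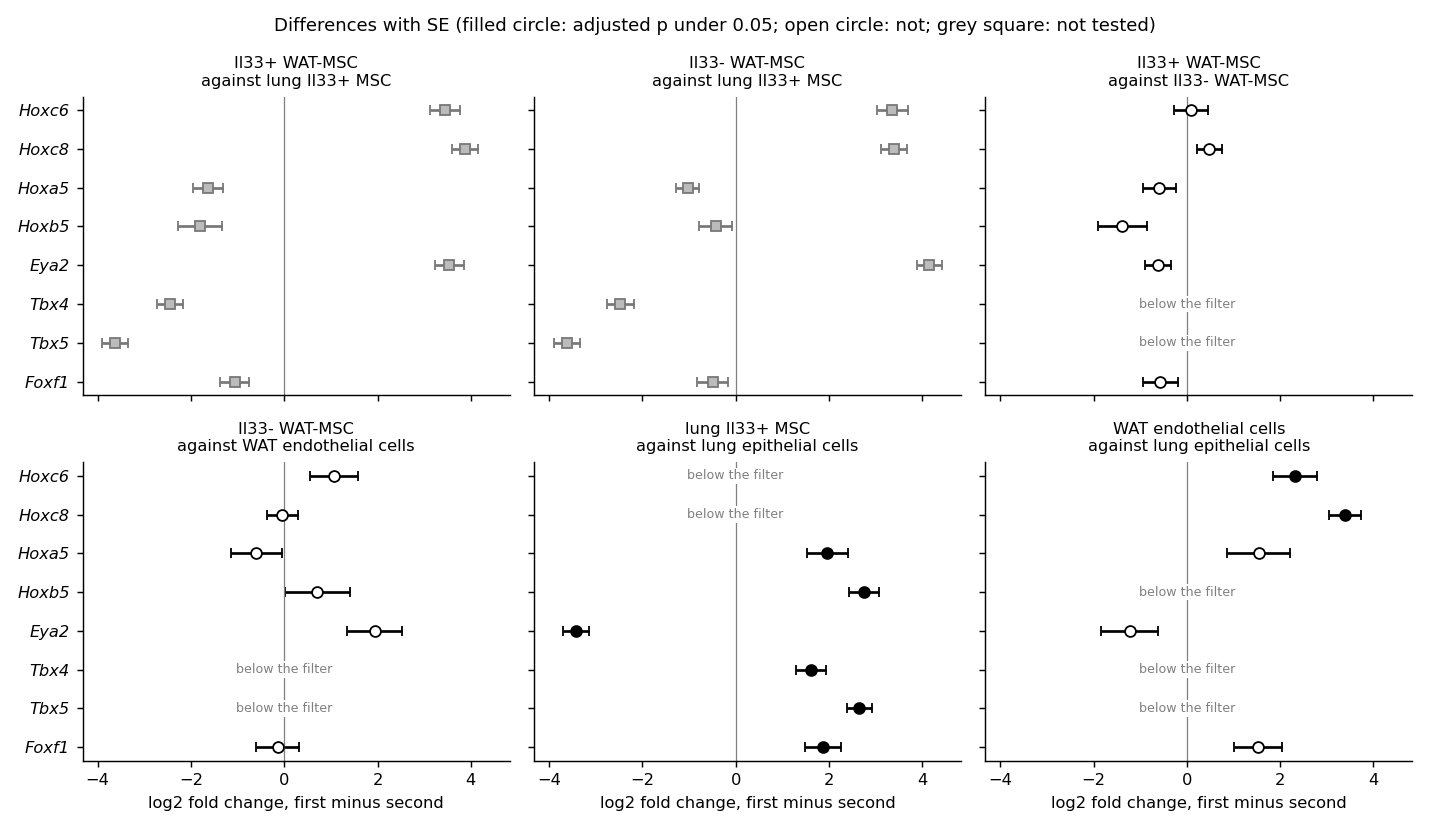
Each panel plots the log2 fold change (x axis, first minus second population, with SE) of the 8 members in 1 of 6 comparisons. Grey squares were not tested, filled circles had an adjusted p under 0.05 and open circles did not. Between lung stroma and lung epithelium Eya2 lies on the opposite side of the other 5 members fitted.

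The table lists 15 of the 39 Hox genes, 4 of HoxA, 6 of HoxB, 3 of HoxC and 2 of HoxD, and the others are not analysed here. The HoxC genes summed to 32.2 ± 4.21 RPKM in Il33+ WAT-MSC, 27.1 ± 5.64 in Il33- WAT-MSC and 17.6 ± 6.45 in WAT endothelial cells, against 0.227 ± 0.0666 in lung Il33+ MSC and 0.177 ± 0.0814 in lung epithelial cells. The HoxD genes were also higher in WAT than in lung stroma, where they summed to 0.173 ± 0.292. They had 4.48 ± 1.2 in Il33+ WAT-MSC, 3.65 ± 3.15 in Il33- WAT-MSC and 9.66 ± 5.08 in WAT endothelial cells. The lowest Il33- WAT-MSC library had 0.67, close to the highest lung stromal library at 0.51. HoxA ran the other way between the stromal populations, with 25.1 ± 3.23 in lung Il33+ MSC, 8.89 ± 4.19 in Il33+ WAT-MSC and 11.4 ± 0.231 in Il33- WAT-MSC. HoxB was less uneven, at 18.8 ± 3.05, 12.2 ± 2.55 and 16.3 ± 0.817. The members Hoxc6, Hoxc8, Hoxa5 and Hoxb5 are part of these sums.

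**Figure D4:**
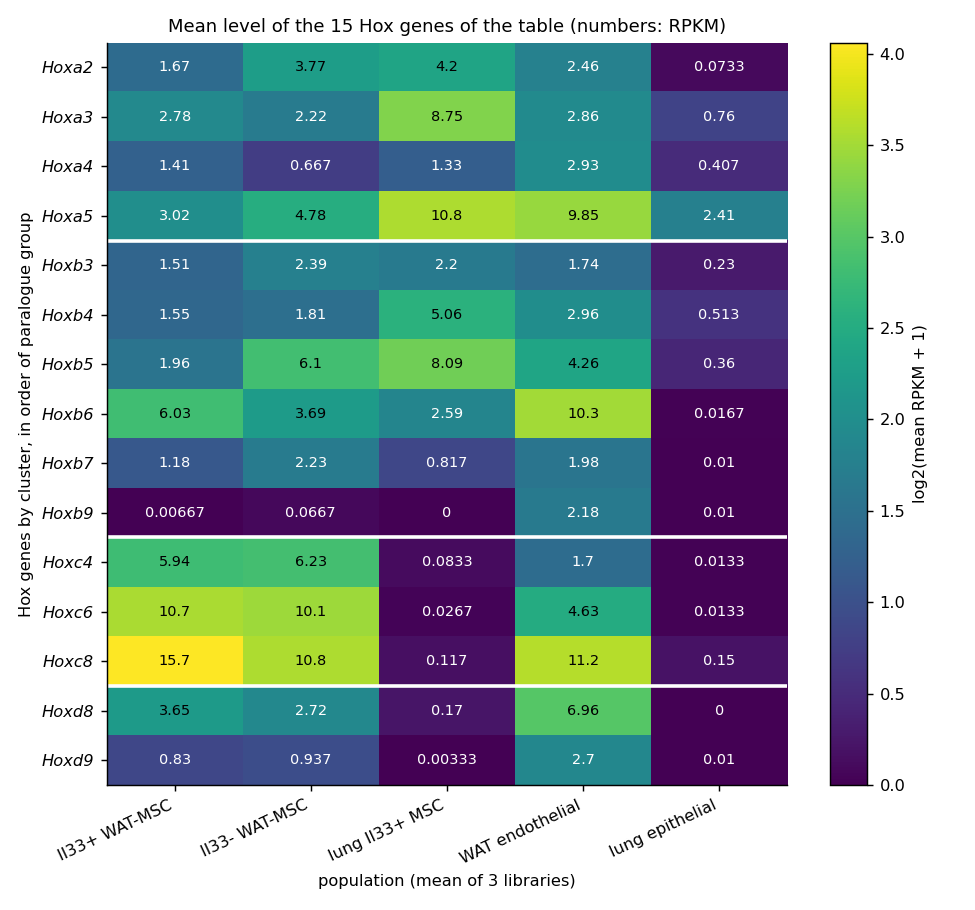
Rows are the 15 Hox genes of the table, by cluster and paralogue group, and columns the 5 populations. The colour gives log2 of the mean RPKM + 1 and the number the mean RPKM of 3 libraries. The 3 HoxC rows are at or below 0.15 in both lung columns and at 1.7 or more in the 3 WAT columns.

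Among the Hox genes outside the 8, Hoxc4 was higher in Il33+ WAT-MSC than in lung Il33+ MSC by 2.59 (SE 0.36, adjusted p = 0.002), and Hoxd8 by 2.01 (SE 0.31, adjusted p = 0.0034). Hoxc4 had 7.94, 2.86 and 7.01 RPKM in the WAT cells against 0.05, 0.17 and 0.03 in the lung cells. Hoxd8 had 3.29, 3.21 and 4.44 against 0, 0.51 and 0. Both thus followed Hoxc6 and Hoxc8, though Hoxd8 had an adjusted p of 0.0541 when all 15 libraries were fitted together. Both passed the filter through the WAT libraries alone. Hoxb4 was lower in Il33+ WAT-MSC, by -1.27 (adjusted p = 0.0457), but was past the threshold in 2 of 14 alternatives only, and lost the call without any 1 of the 6 libraries (adjusted p from 0.0706 to 0.233). The other 6 Hox genes tested did not pass. Of these, Hoxa3 had -1.67 (adjusted p = 0.106), Hoxa2 -1.05 (adjusted p = 0.213), Hoxb6 0.99 (adjusted p = 0.293), Hoxb3 -0.32 (adjusted p = 0.69), Hoxb7 0.24 (adjusted p = 0.853) and Hoxa4 0.14 (adjusted p = 0.919). In Il33- WAT-MSC against the same lung libraries 3 of 8 Hox genes passed (limma, against 9.69% of all genes). They were Hoxc4 (2.71, adjusted p = 0.000326), Hoxa3 (-1.62, adjusted p = 0.00439) and Hoxb4 (-1.11, adjusted p = 0.0459). Hoxd9 and Hoxb9 were below the filter in both comparisons. Hoxd8 was below it in the second, with 0.67, 5.9 and 1.58 RPKM in Il33- WAT-MSC, and was not tested there. Hoxd9 had a mean of 0.83 RPKM in Il33+ WAT-MSC and 2.7 in WAT endothelial cells. Hoxb9 was found in WAT endothelial cells (2.83, 2.11 and 1.61 RPKM) and was at most 0.2 in every other library, with a log2 fold change of -1.57 in Il33- WAT-MSC against WAT endothelial cells (adjusted p = 0.0452).

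Between lung Il33+ MSC and lung epithelial cells, 5 of 5 Hox genes tested outside the members were higher in the stroma (24.4% of all genes), from 1.37 for Hoxb3 (adjusted p = 0.00668) to 2.64 for Hoxa3 (adjusted p = 0.000664). None of the 5 had 3 epithelial libraries at 1 RPKM, so they passed the filter through lung stroma and the count is a description. Between WAT endothelial and lung epithelial cells, 4 of 5 were higher in the endothelium (14.9% of all genes), Hoxd8 (2.68, adjusted p = 0.0113), Hoxb6 (2.61, adjusted p = 0.0491), Hoxb9 (1.64, adjusted p = 0.00505) and Hoxb4 (1.44, adjusted p = 0.0238), all of which passed the filter through the endothelial libraries. Hoxb6 had 27.11 RPKM in endothelial replicate 1 against 2.16 and 1.68 in the others. No Hox gene outside the members was called between Il33+ and Il33- WAT-MSC (limma, 0 of 10, with 1 at an unadjusted p under 0.05).

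Further positional genes, from lists of Hox cofactors, T-box genes, forkhead genes, Eya genes with their partners, hedgehog pathway and other regional factors, numbered 71 in the table with the Hox genes and without the members. In Il33+ WAT-MSC against lung Il33+ MSC, 55 were tested, 7 were higher and 8 lower (27.3%, against 6.00% of all genes), with a median log2 fold change of -0.11 against 0.03 for all genes. The lists were put together with results of these data known, so the share is a description. The count of 15 fell to 6, 8 and 4 without Il33+ WAT-MSC replicate 1, 2 or 3, and to 8, 7 and 9 without lung replicate 1, 2 or 3. Wt1, Nkx2-3, Hoxc4, Hand2, Meox1 and Hoxd8 reached 1 RPKM in no lung stromal library, so fits without a WAT library did not test them. Likewise Tbx2 and Tbx3 were not tested without a lung library. The fall is thus in part an effect of the filter. In Il33- WAT-MSC against the same lung libraries 20 of 55 were called, 5 higher and 15 lower (36.4%, against 9.69% of all genes). The median was -0.18 (all genes 0.05), and 12 were called without Il33- WAT-MSC replicate 2 or any 1 of the lung libraries.

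Of 3 T-box genes tested outside the members, 2 were lower in Il33+ WAT-MSC than in lung Il33+ MSC (3.50% of all genes). Tbx3, a repressor with roles in limb and lung, had 0.37, 0 and 0.58 RPKM in Il33+ WAT-MSC against 6.66, 5.68 and 3.6 in lung Il33+ MSC (log2 fold change -2.25, SE 0.33, adjusted p = 0.00243). Tbx2 had 0.17, 0.28 and 0.13 against 2.37, 2.77 and 2.3 (-1.54, SE 0.28, adjusted p = 0.00868). Neither overlapped between these populations, and both passed the filter through the lung libraries alone. In WAT endothelial cells, where Tbx4 and Tbx5 were near 0, Tbx3 had 4.11, 3.37 and 1.08 RPKM and Tbx2 0.9, 1.03 and 0.55. The third T-box gene tested, Mga, did not pass (0.13, adjusted p = 0.849).

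In Il33+ WAT-MSC against lung Il33+ MSC no Fox gene outside the members passed (limma, 0 of 10, with 1 at an unadjusted p under 0.05), while in Il33- WAT-MSC against the same libraries Foxc1 was lower (-1.98, adjusted p = 0.00798). In the former comparison Six5, the single partner of the Eya genes tested, did not pass (-0.79, adjusted p = 0.196). Fendrr, a non-coding RNA of the mesenchyme that is transcribed from beside Foxf1 in the opposite direction, was lower in Il33+ WAT-MSC, with 1.06, 1.16 and 1.73 RPKM against 4.06, 4.59 and 4.22 in lung Il33+ MSC (-1.2, SE 0.27, adjusted p = 0.0279). It was past the threshold in 5 of 14 alternatives, and lost it without Il33+ WAT-MSC replicate 1 (adjusted p = 0.0955) or 3 (0.0508) or any lung library (0.098, 0.157 and 0.118). Endothelial replicate 1, which had the highest Foxf1 of its population, also had the highest Fendrr, 12.57 RPKM against 1.24 and 1.11.

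Hedgehog signals reach the cell through the receptor PTCH1 and the GLI factors, and Ptch1, Gli1 and Hhip are known targets of the pathway. In Il33+ WAT-MSC against lung Il33+ MSC, 1 of 11 hedgehog genes tested was higher and 3 were lower (2.50% and 3.50% of all genes). Ptch1 had 8.99, 3.36 and 8.67 RPKM against 56.12, 68.41 and 26.53 (-2.67, SE 0.4, adjusted p = 0.00288). Hhip, a decoy receptor, stood at -1.61 (adjusted p = 0.013), Gli1 at -1.01 (adjusted p = 0.0359) and Gli3, the main repressor of the pathway, at 1.06 (adjusted p = 0.0291). Within WAT stroma the means of Ptch1, Hhip and Gli1 were lower in the Il33- cells (3.24, 0.683 and 0.897 RPKM) than in the Il33+ cells (7.01, 1.78 and 5.13). That of Foxf1 was higher in the Il33- cells. None of these differences was called (limma, adjusted p = 0.424 for Ptch1, 0.551 for Hhip, 0.0557 for Gli1 and 0.641 for Foxf1). A link of Foxf1 to hedgehog signals was not tested. Against lung Il33+ MSC, Ptch1 passed in 15 of 15 alternatives, whereas the calls of Hhip, Gli1 and Gli3 were less firm. Hhip lost the call without Il33+ WAT-MSC replicate 3 (adjusted p = 0.0522), lung replicate 1 (0.056) or lung replicate 2 (0.0991). Gli1 lost it without any 1 of the 6 libraries (0.0612 to 0.17), and Gli3 without any of them but Il33+ WAT-MSC replicate 2 (0.0734 to 0.169).

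In Il33- WAT-MSC against lung Il33+ MSC, 3 of 13 other regional factors were higher and 4 lower (4.17% and 5.53% of all genes). The lower ones were Meox2, Prrx1, Nr2f2 and Osr1, from -3.27 to -0.98, named after their values were seen. In Il33+ WAT-MSC against the same lung libraries, 4 of 14 were higher and none lower (2.50% and 3.50% of all genes). The 4 were Wt1 (3.4, SE 0.31, adjusted p = 0.000195), a zinc finger factor of mesothelium and visceral fat, Nkx2-3 (2.78, SE 0.35, adjusted p = 0.00107), a homeobox factor of gut and spleen mesenchyme, Hand2 (2.15, SE 0.29, adjusted p = 0.00176), a factor of heart and limb, and Meox1 (2.07, SE 0.34, adjusted p = 0.00511), a homeobox factor of the somites. All 4 passed in every alternative run for them, 12 for Wt1 and 11 for each of the others. In lung Il33+ MSC they reached at most 0.61, 0.04, 0.01 and 0.8 RPKM, in the order above. They thus passed the filter through the WAT libraries alone, and fits without a WAT library did not test them. The calls are therefore a description. Wt1 had 9.8, 15.14 and 10.58 RPKM in Il33+ WAT-MSC and 0.61, 0.04 and 0.03 in lung Il33+ MSC. Wt1 is also 1 of the 8 mesothelial markers, and their sum includes it. That sum was 40.1 to 129.4 in Il33+ WAT-MSC, 21.5 to 37.3 in Il33- WAT-MSC and 5.06 to 8.29 in lung Il33+ MSC. In Il33- WAT-MSC Wt1 had 23.61, 13.5 and 10.69 RPKM. The other mesothelial markers were at most 0.02, 7.86 and 3.2 RPKM in these 3 libraries. The part of mesothelial RNA in the level of Wt1 was not tested.

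**Figure D5:**
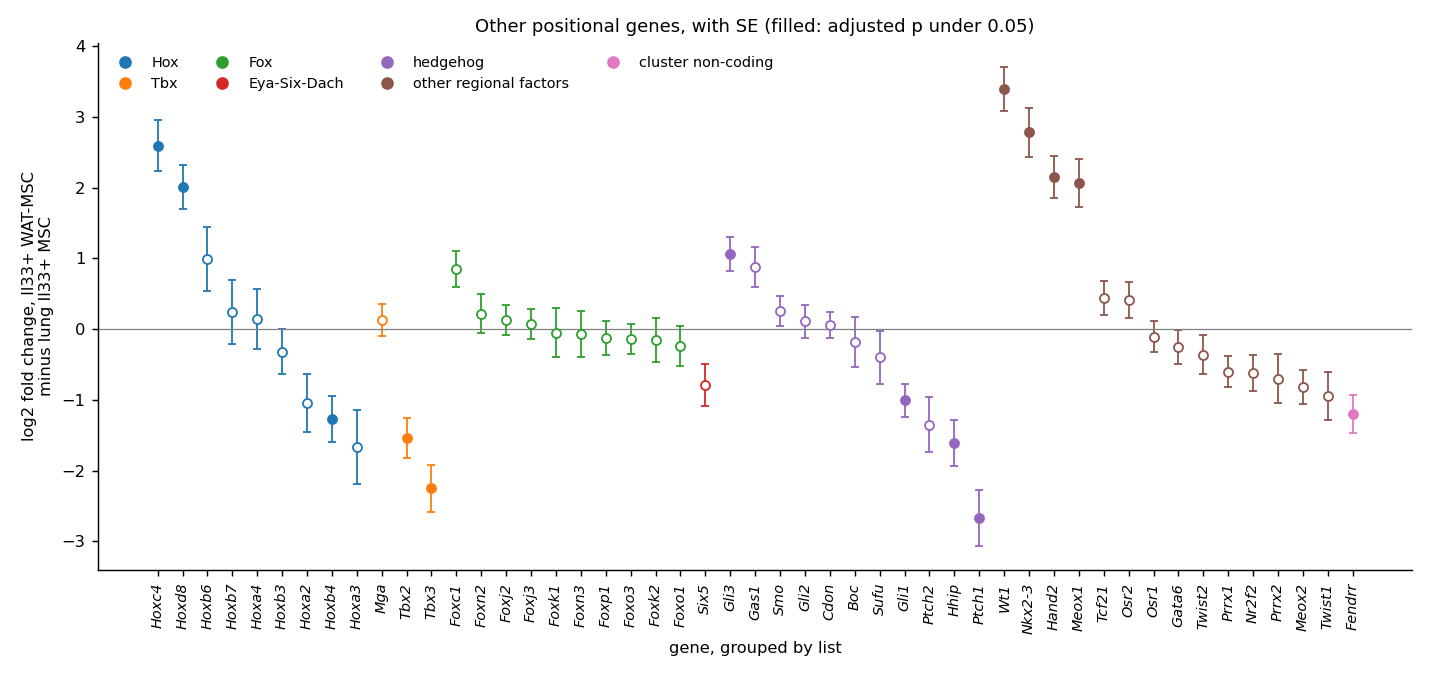
The log2 fold change (y axis, with SE) of the other positional genes tested, without the Hox cofactors, in Il33+ WAT-MSC against lung Il33+ MSC is plotted by list, with filled points at an adjusted p under 0.05. Wt1, Nkx2-3, Hoxc4, Hand2, Meox1 and Hoxd8 lie above 2, and Ptch1 and Tbx3 below -2.

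Between Il33+ and Il33- WAT-MSC, 2 of 55 of these genes differed (3.64%, against 1.57% of all genes). They were Foxc1 and Meox2, named after their values were seen. Foxc1 had 12.38, 15.69 and 11.25 RPKM in the Il33+ cells against 0.34, 2.37 and 0.7 (2.83, SE 0.38, adjusted p = 0.00462). Meox2 had 18.25, 10.83 and 13.68 against 3.44, 0.94 and 1.39 (2.45, SE 0.37, adjusted p = 0.00797). Without Il33+ WAT-MSC replicate 1, 1 of them was called. Both also had levels above 5 RPKM in every lung Il33+ MSC library. Between Il33- WAT-MSC and WAT endothelial cells 5 of 58 were called, 2 higher in the stroma and 3 lower (8.62%, against 5.69% of all genes). The count fell to 1, 2 and 1 without Il33- WAT-MSC replicate 1, 2 or 3 and to 1 and 3 without endothelial replicate 2 or 3. Between lung Il33+ MSC and lung epithelial cells 46 of 57 were called, 35 higher and 11 lower (median 1.45, all genes 0.13). Of all genes 43.0% were called there, 24.4% higher and 18.5% lower. List genes near 0 in 1 of these populations passed the filter through the other, so the count is a description. Six4, a partner of EYA proteins that was also named after its values were seen, was lower in lung stroma than in lung epithelium, with -2.56 (adjusted p = 6.35e-05), while Six5 was higher there, with 2.0 (adjusted p = 0.00243). In WAT stroma, where Eya2 was highest, Six4 was at most 0.26 RPKM. Between WAT endothelial and lung epithelial cells 29 of 55 were called, 19 higher and 10 lower (52.7%, against 27.6% of all genes), which is a description for the same reason. The count was 16 without endothelial replicate 2 or 3, and 14, 11 and 12 without epithelial replicate 1, 2 or 3.

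The genes most like the members were sought over the 15 libraries among 9553 genes with a mean of at least 1 RPKM, as a description with no test. With the mean profile of Hoxc6, Hoxc8 and Eya2, the highest Pearson r were 0.935 for Piezo2, 0.926 for Enpp2, 0.925 for Nkx2-3, 0.922 for Flrt3 and 0.919 for Hoxc4. Enpp2, which encodes autotaxin, had means of 29.5 ± 16.3 RPKM in Il33+ WAT-MSC, 43.7 ± 8.74 in Il33- WAT-MSC and 2.8 ± 0.391 in lung Il33+ MSC. With the mean profile of the 5 members higher in lung stroma, they were 0.913 for Icosl, 0.896 for Angpt1, 0.894 for Bdkrb1, 0.887 for Nhs and 0.883 for Serpina3m. Icosl, the ligand of the co-stimulator ICOS, had a mean of 27.0 ± 6.4 RPKM in lung Il33+ MSC against 3.87 ± 1.26 in Il33+ WAT-MSC. The libraries share their populations, so these values reflect 5 groups more than 15 separate points.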

How the data were processed

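RNA of 15 libraries was amplified with the Nugen Ovation V2 kit and sequenced on an Illumina HiSeq instrument. Reads were aligned with TopHat2 in Partek Flow, and the submitters' processing notes also name mm10. The authors deposited RPKM values for 12698 transcripts, computed in Partek Genomics Suite. How these transcripts were selected is not given in the sources used here, and the raw counts behind the RPKM values were not used here. All 15 value columns matched a sample's labels, with 0 left over, and no 2 columns held identical values.

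RPKM was summed per gene symbol, and log2(RPKM + 1) was compared with limma 3.58.1 (trend, R 4.3.3) on the 6 libraries of each pair, restricted to genes that reached 1 RPKM in 3 or more of them. P-values were adjusted by the Benjamini-Hochberg method and called under 0.05. The fit was tested on simulated data. Correlations, sums and figures were made in Python 3.11.15 with numpy 2.4.6, pandas 2.3.3 and matplotlib 3.10.9. RPKM carries no depth of its own, so no counting interval is given, and the number of libraries limits the precision.

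The alternatives were a pseudocount of 0.1, scaling by median ratios or by quantiles, and a minimum of 5 RPKM or none. Others were the most abundant transcript alone, a fit of all 15 libraries, and the lane or the replicate number in the fit. Each library was also left out in turn. The filter was applied anew each time, so a gene at the minimum in a single population was not tested without a library of that population. The genes named are the 8 members, every gene of the positional lists past the threshold in Il33+ WAT-MSC against lung Il33+ MSC, all Hox genes measured, and the 5 genes most like each of the WAT-high and lung-high members. Some items within this rule are not reported here. Genes outside it are named as such. Members and lists were chosen with earlier results of these data known.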

Additional observations from a re-analysis of the deposited data

How the results depend on the processing

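Members kept their direction between WAT and lung stroma under every alternative run. For Hoxc6, Hoxc8, Eya2, Tbx4 and Tbx5 there were 11 or 12 alternatives, against 15 for Hoxa5, Hoxb5 and Foxf1. Each of the former fell below the filter when a library of the tissue where it was high was left out. Members reversed only in uncalled comparisons and when 1 library was left out. Between Il33+ and Il33- WAT-MSC, Hoxc6 (0.09, and -0.19 to 0.37 over these fits) turned to -0.19 without Il33+ replicate 1 and to -0.18 without Il33- replicate 1. Between Il33- WAT-MSC and WAT endothelial cells, Hoxc8 turned to 0.08 without Il33- replicate 3 and 0.1 without endothelial replicate 3, Foxf1 to 0.04, 0.02 and 0.2 without Il33- replicate 2, Il33- replicate 3 or endothelial replicate 1, and Hoxa5 and Hoxb5 to 0.03 and -0.09 without endothelial replicate 1. These fits spanned -0.2 to 0.1 for Hoxc8, -0.48 to 0.2 for Foxf1, -1.07 to 0.03 for Hoxa5 and -0.09 to 1.28 for Hoxb5. The cause was not tested. The most abundant transcript alone gave -1.71 for Tbx4 for Il33+ WAT-MSC against lung Il33+ MSC.

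Counts of called genes moved more. With all 15 libraries in one fit, 336 genes were called for Il33+ WAT-MSC against lung Il33+ MSC (513 in the pairwise fit), and 1030 between Il33- WAT-MSC and WAT endothelial cells (496), of which 13 were list genes (5). With no filter, 45 genes and 1 list gene were called between Il33+ and Il33- WAT-MSC (133 and 2). With the stricter minimum, which tests fewer genes, list genes numbered 6 (15) and 13 (20) for Il33+ and Il33- WAT-MSC against lung stroma, and 16 (29) between WAT endothelial and lung epithelial cells. A pseudocount of 0.1 left 3 list genes (5) between Il33- WAT-MSC and WAT endothelial cells. Median-ratio scaling moved the median of all genes from 0.17 to 0.03 there, from 0.13 to -0.06 between the lung populations and from 0.08 to -0.13 between WAT endothelial and lung epithelial cells.

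Leaving out 1 library gave 191 to 447 called genes and 4 to 9 list genes for Il33+ WAT-MSC against lung Il33+ MSC. There were 238, 191 and 267 genes without lung replicate 1, 2 or 3. Genes that fell below the filter in such fits are not in these counts. For Il33- WAT-MSC against lung Il33+ MSC the ranges were 401 to 888 and 12 to 18, with 427, 401 and 437 genes without lung replicate 1, 2 or 3. For Il33+ against Il33- WAT-MSC they were 49 to 121 and 1 to 2, with 49, 76 and 65 genes without Il33+ replicate 1, 2 or 3 and 66 and 54 without Il33- replicate 2 or 3. For Il33- WAT-MSC against WAT endothelial cells they were 140 to 414 and 1 to 4, with 252, 246 and 238 genes without Il33- replicate 1, 2 or 3 and 140 without endothelial replicate 2. For the lung populations they were 2835 to 3300 and 32 to 38. For WAT endothelial against lung epithelial cells they were 1085 to 2668 and 11 to 25, with 1234, 1085 and 1141 genes without epithelial replicate 1, 2 or 3.

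Same-numbered libraries of different populations did not deviate together in every pair (mean r from 0.01 to 0.11), so the numbers were not taken as pairs. Blocking on the replicate number gave 232 called genes between Il33+ and Il33- WAT-MSC (133 without it), and the other counts stayed within 1.5 times, at 454, 946, 680, 4186 and 2806. Foxf1 between WAT endothelial and lung epithelial cells passed with the block (adjusted p = 0.0235). With 3 libraries a population and no animals named, small differences cannot be resolved, and RPKM near 0 gives folds that depend on the pseudocount.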
